A study of Mus musculus with 48 samples.

Results

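The 5 explants, pieces of iris carrying engrafted liver spheroids, were compared with 3 livers over the genes that are abundant in liver and low in iris, after the RNA of the surrounding iris had been subtracted from every explant in the same way. Members were selected on measured levels. A gene was taken where its mean over the livers was at least 10 TPM (transcripts scaled to a constant total per sample) and its mean over 3 naïve irises was under 50% of that, which chose 1704 of the 46517 genes in the deposited tables. Of the 8528 genes at the liver limit, 6824 were too abundant in iris. At the liver limit Nkx2-6 lay just inside, at 10.01 TPM in liver, and Mir7082 just outside, at 9.99 TPM. At the iris limit Hras was just inside, at 49.95% of its liver level in iris, and Etfdh just outside, at 50.08%. The liver limit draws on the same 3 livers that the explants were compared with, so it favours genes that are high in those livers.

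The labels describe wild-type albino mice of strain C57BL/6N, whereas the study's methods list albino mice of B6(Cg)-Tyrc-2J/J for its experiments. Hepatocytes were isolated by collagenase perfusion and enriched on Percoll, formed into spheroids in culture, and injected into the anterior chamber of the eye, where they attached to the iris. Explants 1, 2, 4, 5 and 6 were taken 2 months post-tx (post-transplantation) and hold the spheroids together with the iris around them. The labels give the livers as endogenous liver of donor mice, and do not name the mice that carried the explants as their source. These livers are whole organs and so hold endothelial cells, Kupffer cells, stellate cells and bile ducts beside hepatocytes. The 3 hepatocyte-enriched preparations are the kind of cell suspension the spheroids were made from. All groups carry the same genotype in the labels, and the labels give neither the sex nor the age of a sample. Each sample was sequenced by Smart-seq3 as 3 technical libraries, which were summed. Nothing in the labels says which samples came from separate animals, so the p-values measure the spread between these samples.

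Hepatocytes secrete most proteins of the plasma, clear ammonia through the urea cycle, store and release glucose, burn and build fatty acids, make bile acids and modify foreign compounds. They divide this work along the blood flow: cells near the portal vein (periportal) take on urea and glucose synthesis, and cells near the central vein (pericentral) take on drug metabolism and glutamine synthesis. Circulating growth hormone, released in pulses that differ between male and female mice, sets a further program of sex-biased liver genes.

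In explants 1, 2, 4, 5 and 6 the iris fraction removed was 82%, 68%, 81%, 72% and 59%. Total counts ran from 5449589 to 6789648 per explant and from 3523171 to 3871404 per liver, higher in every explant than in every liver (exact permutation p = 0.0179, two-sided, the smallest that 56 splits allow). Removal divides what is left by 1 minus the fraction, so counting error in explant 1 was multiplied by 5.56 and in explant 6 by 2.44. Where iris accounted for all the signal of a gene, its value was set to 0, and a 0 here does not say that no transcript was present. A gene that is lower may reflect fewer cells of a type or less RNA per cell, which cannot be told apart in bulk samples. The 5 hepatocyte markers Alb, Ttr, Apoa1, Hnf4a and Cyp2e1 summed to 11178 to 19397 TPM in explants and 9701 to 10573 TPM in livers. Alb, Ttr and Apoa1 were higher in every explant than in every liver. Hnf4a went the other way, at 96.2 to 139 TPM in explants and 211 to 234 TPM in livers. Cyp2e1 overlapped, at 1179 to 4486 TPM in explants and 2110 to 2709 TPM in livers. After removal all 5 lens markers were at 0 in every explant, while the 5 iris markers still summed to 127 to 2353 TPM, against 293 to 301 TPM in livers. The eye factor Pax6 was at 17.5 to 149 TPM in explants and at 2.92 to 3.37 TPM in livers. Tyrp1, a pigment cell enzyme, was ordered otherwise, at 0 in explant 5 and at 55.4 to 979 TPM in the other explants. The irises in turn held 753 to 861 TPM of Alb. The part of these transcripts in the results below was not tested.

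Liver 1 stood apart from the other livers. It was over 2-fold away from the mean of the other livers in 300 members, against 201 for liver 2 and 141 for liver 3. Where leaving it out moved the number of calls lower in a list by over 1.5 times, or ended the call of a gene given with its values, the result without it is printed as well.

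All 1704 members passed the filter of a mean of 1 TPM over the 8 samples, as their selection makes them. Values were compared on the log2(TPM + 1) scale with limma over 21002 genes, and calls needed an adjusted p (Benjamini-Hochberg) under 0.05 together with a log2 difference over 1 in size. Every log2 difference below is explant minus liver on that scale, with its standard error, and understates the change of low genes. Among members 306 were called lower in explants (18%), where 3.01% of all genes tested were, and 32 were called higher (1.88%), where 11.8% of all genes were. In either direction 338 were called (19.8%), against 14.8% of all genes. The selection on liver bears on these shares. Without liver 1, 172 of the 1704 members were called lower and 42 higher, where 1.47% and 7.17% of all genes tested were. Without liver 2 the member calls were 79 lower and 12 higher, where 0.943% and 4.41% of all genes were. Without liver 3 they were 71 lower and 15 higher, where 0.894% and 4.51% of all genes were. The members of all lists called lower were 93, and 31 and 22 without livers 2 and 3, so the counts of single lists rest on few livers. Of the 24 largest rises and falls named below, 22 were called without liver 1, 10 without liver 2 and 12 without liver 3. Ly6d, Atp6v0d2, Tspan8, Cyp2c55, Mup1, Mup17, Clec4g, Clec4f, Serpina4-ps1, Gm13775, Cyp4a14 and 9030616G12Rik were called neither without liver 2 nor without liver 3. Zbp1 and Gstm3 were not called without liver 2. For other genes, calls lost without liver 2 or 3 are not printed. At an adjusted p under 0.05 and any size of difference, 383 members were lower and 61 higher. The values of explants and livers did not overlap in 799 members (46.9%), against 28.5% of all genes tested.

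The median log2 difference of the members was -0.70, or a level 1.62-fold higher in liver, with quartiles at -1.37 and -0.14. Over all genes tested the median was 0.61. Within a log2 difference of 1 stood 1000 members (58.7%). The shift was present in each explant: the median log2 ratio to the mean liver was -0.89, -0.62, -0.75, -0.66 and -0.49 in explants 1, 2, 4, 5 and 6. Explant 6, with the smallest iris fraction, was the highest explant in 32% of members, and explant 1, with the largest, the lowest in 40.2%. The others did not follow the fraction. Explant 4, at 81%, was the highest in 23.7% and the lowest in 27.5%, while explants 2 and 5 were the highest in 18.7% and 13.2%. The shift moves with the fraction that is removed. With 5 percentage points more iris taken from each explant the median was -0.47 and 124 members were called lower, and with 5 points less it was -0.88 with 499 lower. A member's place relative to the other members is therefore given as well. When every sample was rescaled to a member median of 0, 88 of the 1704 members were called lower, where 1.25% of all genes tested were. Of the members 158 were then called higher, where 19.5% of all genes were. All 88 were among the 306 called lower without rescaling, and the 158 include all 32 called higher without it.

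**Figure D1:**
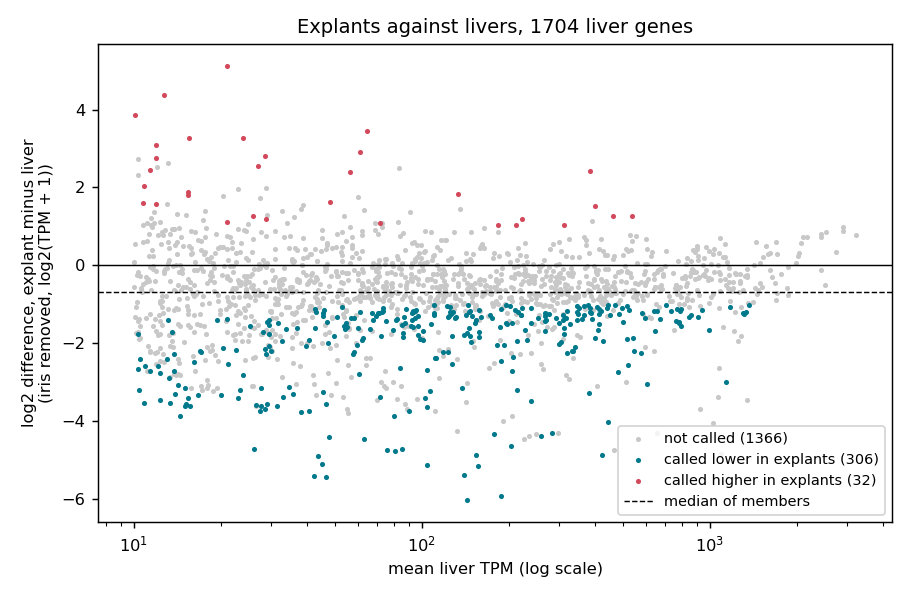
Log2 difference between 5 explants and 3 livers against mean liver TPM (log scale) for the 1704 members, one point per gene. The 306 members called lower are in blue and the 32 called higher in red, and the dashed line marks the median of -0.70.

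Genes of secreted plasma proteins stood above the other members. Of 20 plasma carriers 0 were called at the log2 limit of 1, and 9 had an adjusted p under 0.05. Without liver 1 Hpx alone was called, as higher. Their median log2 difference was 0.33, which is 1.02 above the median of all members. Hemopexin (Hpx), which binds free heme, was at 7943, 5621, 5967, 5007 and 4574 TPM in explants 1, 2, 4, 5 and 6 and at 3015, 2982 and 2718 TPM in livers 1, 2 and 3, the order used throughout (0.98 ± 0.16, adjusted p = 0.00568). The fetuin gene Ahsg was at 6283, 4973, 7026, 4716 and 4223 TPM in explants and 3144, 2817 and 2699 TPM in livers (0.89 ± 0.17, adjusted p = 0.00834). For both genes the lowest explant lay above the highest liver, and explant 1 or 4 was the highest. After rescaling 10 of the 20 carriers were called higher.

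The other secreted families lay closer to 0 than the members as a whole, with 0 called in either direction. The medians were 0.22 for 13 serpina protease inhibitors, -0.18 for 18 genes of coagulation and fibrinolysis, -0.23 for 18 complement genes, -0.24 for 20 genes of apolipoproteins and lipoprotein handling and -0.27 for 19 acute phase genes. Fibrinogen gamma (Fgg), a chain of the clot protein, was at 2788, 2534, 2995, 2339.6 and 2279 TPM in explants and 1576, 1801 and 1703 TPM in livers (0.61 ± 0.12, adjusted p = 0.0102). Factor B (Cfb) of the alternative complement pathway was at 1783, 1709, 1488, 1609.9 and 1682 TPM in explants and 1079, 1066 and 1226 TPM in livers (0.56 ± 0.11, adjusted p = 0.0101). Explants and livers did not overlap in either gene, the explants being the higher. Histidine-rich glycoprotein (Hrg) went the other way, at 858, 952, 1253, 799 and 973 TPM in explants and 1338, 1493 and 1467 TPM in livers (-0.58 ± 0.16, adjusted p = 0.0354), again with no overlap. Apoc1 was at 1887, 2058, 2057, 2134 and 2208 TPM in explants and 1925, 2179 and 1875 TPM in livers, and the groups overlapped (0.06 ± 0.10, adjusted p = 0.712). After rescaling 5 serpins, 5 coagulation genes, 5 complement genes and 7 acute phase genes were called higher and none of these 4 lists had a member called lower.

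No gene of 500 bases or more had over 1.70 counts per base in any library, a limit that touches the most abundant transcripts. The 24 members with 0.8 counts per base or more in livers had a median log2 difference of 0.30, which fell to 0.11 when the limit of 2 deduplicated read starts per base was undone in the counts. The 1132 members under 0.1 counts per base had a median of -0.76. The median of the plasma carriers, at 0.69 counts per base, was 0.29 with the limit undone.

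**Figure D2:**
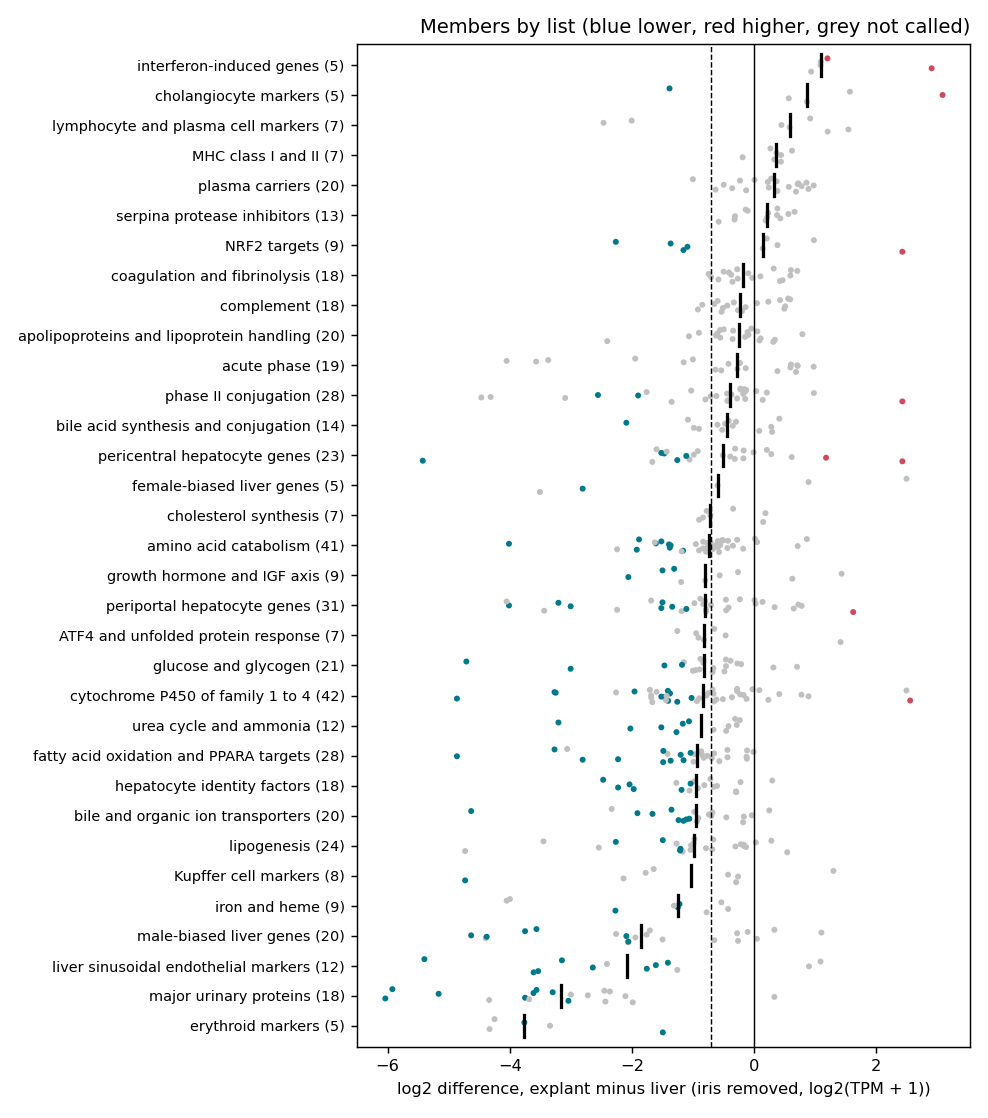
Log2 difference, explant minus liver, of each member in the lists that hold 5 or more members, with the number of members in brackets. Black bars mark list medians, the solid line 0 and the dashed line the median of all members, -0.70. Plasma carriers and serpins lie right of 0, while major urinary proteins and sinusoidal endothelial markers lie furthest left beside the erythroid genes.

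Explant 4 was the lowest explant in 10 of the 19 acute phase members and the highest in 3. Saa2, a serum amyloid made on inflammatory signals, was at 398, 281, 0, 236 and 261 TPM in explants and 653, 1786 and 762 TPM in livers (-3.37 ± 1.8, adjusted p = 0.241). The lipocalin Lcn2, made by stressed epithelium and neutrophils, was at 324, 231, 0, 249 and 289 TPM in explants and 166, 159 and 33.7 TPM in livers (-0.14 ± 1.82, adjusted p = 0.964). Orm1, an acid glycoprotein of the acute phase, was at 1789, 1485, 258, 1345 and 1478 TPM in explants and 974, 1633 and 1222 TPM in livers (-0.23 ± 0.58, adjusted p = 0.795). In all 3 genes explant 4 was the lowest, at 0 in Saa2 and Lcn2, and the other explants lay together. The interferon-induced factor Irf7 was highest in explant 4, at 121, 121, 359.9, 89.3 and 134 TPM in explants against 63, 54.5 and 89.1 TPM in livers (1.09 ± 0.43, adjusted p = 0.122).

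The factors that keep hepatocytes differentiated were lower in part. Of 18 members 6 were called lower and 0 higher, with a median of -0.95. After rescaling 3 were lower, and without liver 1 also 3. Cebpa, a factor of hepatocyte maturation, was at 52.7, 38.5, 51.5, 29.9 and 65 TPM in explants and 180.4, 222 and 176 TPM in livers (-2.04 ± 0.29, adjusted p = 0.00302). Rxra, the shared partner of many nuclear receptors, was at 41.6, 52.9, 30.7, 31.1 and 31.4 TPM in explants and 169, 127 and 147 TPM in livers (-1.97 ± 0.28, adjusted p = 0.00278). Ppara, the receptor that turns on fat burning, was at 10.4, 26.9, 54.4, 21.8 and 30.4 TPM in explants and 104, 125 and 139.7 TPM in livers (-2.23 ± 0.47, adjusted p = 0.0134). Every explant was below every liver in these 3 genes, and they are the 3 that remained lower after rescaling. Onecut1, a factor of hepatocyte development, was at 0.117, 4.47, 2.42, 2.17 and 2.74 TPM in explants and 11.5, 15.1 and 22.1 TPM in livers (-2.47 ± 0.60, adjusted p = 0.0249), and its adjusted p was 0.0711 without liver 1. The bile acid receptor Nr1h4 was at 144, 193, 177, 158 and 246 TPM in explants and 263, 288 and 344 TPM in livers (-0.71 ± 0.22, adjusted p = 0.0561), and the sterol receptor Nr1h3 at 165, 164, 116, 195 and 202 TPM and 205, 186 and 219 TPM (-0.29 ± 0.22, adjusted p = 0.399). Nr1h4 did not overlap between the groups and Nr1h3 did.

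Of 28 members of fatty acid oxidation and PPARA targets, Ppara itself included, 10 were called lower and 0 higher, with a median of -0.93 (3 lower after rescaling, 5 without liver 1). Cyp4a10, a fatty acid hydroxylase and PPARA target, was at 17.6, 85.5, 40.2, 19.4 and 63.4 TPM in explants and 350.2, 307 and 479.6 TPM in livers (-3.27 ± 0.53, adjusted p = 0.00482). Cyp4a14, of the same cluster, was at 10.6, 55.5, 0, 9.38 and 47.9 TPM in explants and 679.8, 183 and 404 TPM in livers (-4.87 ± 1.2, adjusted p = 0.0261). Liver 1 was the highest of all samples for Cyp4a14, and without it the log2 difference was -4.43 with an adjusted p of 0.107. Reads of these neighbouring copies may have been split between them. Fabp1, the fatty acid carrier of liver, was at 1616, 2127, 2738, 2386 and 2401 TPM in explants and 2037, 2756 and 2467 TPM in livers, where the groups overlapped (-0.11 ± 0.18, adjusted p = 0.666).

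In lipid synthesis 4 of 24 members were called lower and 0 higher (median -0.98), where 18% of all members were called lower. After rescaling 0 were lower and 1 higher. Malic enzyme (Me1), a source of reducing power for fat synthesis, was at 24.4, 104, 37.6, 72.1 and 92.2 TPM in explants and 139, 499 and 319 TPM in livers (-2.26 ± 0.56, adjusted p = 0.0263). The desaturase Scd1 was at 2498, 1993, 1627, 1665 and 1865 TPM in explants and 1198, 1926 and 1661 TPM in livers (0.28 ± 0.19, adjusted p = 0.343). The highest explant lay under the lowest liver for Me1, while the groups overlapped for Scd1. Thrsp, a lipogenic gene, spread widely at 494, 87, 0, 612 and 745 TPM in explants, with explants 2 and 4 far below the others, and 759, 1977 and 1307 TPM in livers (-3.45 ± 1.97, adjusted p = 0.268). Of 7 cholesterol synthesis members 0 were called, with a median of -0.71.

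Of 21 members of glucose and glycogen metabolism 4 were called lower and 0 higher (median -0.83), where 18% of all members were called lower. After rescaling 1 was lower and 1 higher. Pck1, which commits carbon to new glucose, was at 48, 693, 39.3, 160.0 and 195 TPM in explants and 1659, 700.2 and 1065 TPM in livers (-3.0 ± 0.85, adjusted p = 0.0424), with an adjusted p of 0.155 without liver 1. Explant 2 came near the lowest liver while explants 1 and 4 were far below. Slc37a4, which carries glucose 6-phosphate into the endoplasmic reticulum, was at 245, 264, 251, 322 and 373 TPM in explants and 689, 723 and 554 TPM in livers (-1.18 ± 0.19, adjusted p = 0.00518). Gys2, the glycogen synthase of liver, was at 103, 156, 259.7, 216 and 188 TPM in explants and 646, 375 and 483 TPM in livers (-1.47 ± 0.31, adjusted p = 0.0145), with an adjusted p of 0.0696 without liver 1. In both genes every explant was below every liver. Ppp1r3g, which brings a phosphatase to glycogen, was at 0 in all 5 explants after removal and at 23, 36.3 and 19.1 TPM in livers.

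Urea cycle genes and those that feed it were lower in part. Of 12 members 6 were called lower and 0 higher, with a median of -0.86 (1 lower after rescaling, 3 without liver 1). Car5a, the mitochondrial carbonic anhydrase that supplies bicarbonate, was at 54.1, 71, 83.5, 66.8 and 94.7 TPM in explants and 275, 332 and 292 TPM in livers (-2.03 ± 0.23, adjusted p = 0.0013). Slc25a13, the aspartate carrier, was at 82.7, 88.5, 70.7, 104 and 115 TPM in explants and 231, 195 and 239 TPM in livers (-1.27 ± 0.23, adjusted p = 0.00693). Asl, which splits argininosuccinate, was at 122, 180.2, 97.2, 132 and 188 TPM in explants and 549, 329.9 and 358 TPM in livers (-1.52 ± 0.28, adjusted p = 0.00795). Explants and livers did not overlap in these 3 genes. Cps1, the entry step, was at 779, 1224, 674, 672 and 1012 TPM in explants and 1531, 883 and 1073 TPM in livers (-0.42 ± 0.25, adjusted p = 0.293). Arg1, the last step, was at 1119.6, 1725, 807, 1174 and 1452 TPM in explants and 1904, 1613 and 1512 TPM in livers (-0.46 ± 0.23, adjusted p = 0.213). Both overlapped between the groups.

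Of 41 members of amino acid catabolism 9 were called lower and 0 higher, where 18% of all members were called lower. The median of -0.73 was near the -0.70 of all members. After rescaling 3 were lower and 1 higher, and without liver 1 they were 5 lower and 1 higher. Afmid, of tryptophan breakdown, was at 47.7, 84.3, 47.3, 47.6 and 85.2 TPM in explants and 237, 199 and 258 TPM in livers (-1.92 ± 0.29, adjusted p = 0.00392). Bckdha, a subunit of the enzyme that degrades branched-chain keto acids, was at 86.7, 207, 176, 96.5 and 166 TPM in explants and 569, 484 and 491 TPM in livers (-1.88 ± 0.31, adjusted p = 0.00532). No explant reached the lowest liver in either, and both remained lower after rescaling. Sds, a serine dehydratase induced in fasting, was at 12.3, 207, 6.35, 10.9 and 17.3 TPM in explants and 904, 197 and 229 TPM in livers (-4.01 ± 1.03, adjusted p = 0.0301). For Sds explant 2 lay among the livers, liver 1 was far above the rest, and without liver 1 the adjusted p was 0.13.

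Cytochrome P450 genes fell in part. Of 42 members in families 1 to 4, 11 were called lower and 1 higher, with a median of -0.84, where 18% of all members were called lower. After rescaling 2 were lower and 3 higher, and without liver 1 there were 7 lower and 3 higher. Cyp1a2, which oxidises caffeine and other aromatic amines, was at 190.3, 172, 301, 364 and 358 TPM in explants and 437, 1033 and 871 TPM in livers (-1.47 ± 0.36, adjusted p = 0.0245). Cyp2d26 was at 704, 869, 717, 713 and 778 TPM in explants and 1226, 1139 and 1206 TPM in livers, with no overlap and a narrow spread in each group (-0.66 ± 0.12, adjusted p = 0.00785). The member called higher was Cyp2c55, at 209, 181, 48.5, 142 and 221 TPM in explants and 47.8, 20.1 and 12.9 TPM in livers (2.56 ± 0.57, adjusted p = 0.0174). The lowest explant, 4, stood just above liver 1 for Cyp2c55. Of 28 members of phase II conjugation 2 were called lower and 1 higher (median -0.40). Ugt2b1, a glucuronosyltransferase, was at 38.7, 207, 60.6, 69.8 and 104 TPM in explants and 283, 556 and 712 TPM in livers (-2.56 ± 0.52, adjusted p = 0.012). Gstm3, a glutathione transferase, was at 2351, 1662, 1003, 1675 and 1672 TPM in explants and 765, 246 and 141 TPM in livers (2.43 ± 0.49, adjusted p = 0.011). Liver 1 was again the closest liver for Gstm3, and without it the log2 difference was 3.11. Gstm1 of the same family was at 1622, 1352, 987, 1291 and 1361 TPM in explants and 1234, 1114 and 1048 TPM in livers, overlapping (0.21 ± 0.16, adjusted p = 0.4). Among 9 NRF2 targets, to which Gstm3 also belongs, 4 were called lower and 1 higher, so these calls did not share a direction. Their median was 0.14, which is 0.84 above the median of all members, and after rescaling 0 were lower and 2 higher.

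Of 20 bile and organic ion transporters 8 were called lower and 0 higher (median -0.96, with 1 lower after rescaling and 4 without liver 1). Slc10a1, which takes up bile salts with sodium, was at 402, 589, 640.5, 472 and 672 TPM in explants and 1069.6, 1473 and 1349.8 TPM in livers (-1.24 ± 0.20, adjusted p = 0.0052). Abcc6, an exporter of the basal membrane, was at 14.7, 21.4, 24.1, 29.996 and 37 TPM in explants and 74.6, 78.5 and 84.9 TPM in livers (-1.66 ± 0.34, adjusted p = 0.0119). All 5 explants were below all 3 livers in both genes. Of 14 members of bile acid synthesis and conjugation 1 was called lower, Cyp7b1 of the alternative route, at 64, 63.8, 106, 35.7 and 52.6 TPM in explants and 81.4, 429.6 and 507 TPM in livers (-2.09 ± 0.60, adjusted p = 0.044). Liver 1 lay among the explants for Cyp7b1, and without liver 1 the list had 2 called lower. Cyp7a1, the rate-limiting enzyme of the classic route, was at 54, 148, 499, 147 and 189 TPM in explants and 212, 61.7 and 179 TPM in livers, with explant 4 the highest of all (0.28 ± 0.66, adjusted p = 0.778).

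Iron genes were lower in part, 3 of 9 members with 0 higher (median -1.25). The iron sensor Tfr2 was at 131, 190.4, 90.7, 149 and 189 TPM in explants and 298, 345 and 399.9 TPM in livers (-1.25 ± 0.27, adjusted p = 0.0156), and the heme synthesis gene Cpox at 11.3, 10.003, 7.4, 13.9 and 13.9 TPM and 48.5, 71.4 and 53.6 TPM (-2.27 ± 0.35, adjusted p = 0.00395). Neither overlapped between the groups. Hamp, the iron hormone hepcidin, was at 7.95, 786, 62.4, 13.5 and 134 TPM in explants and 1175, 969.7 and 922 TPM in livers (-4.05 ± 1.27, adjusted p = 0.0613). Explant 2 came near the livers in Hamp while explants 1 and 5 were almost without it, and the gene did not pass the test.

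Mup11 and Mup17, with the largest falls of the genes named by size, belong to the major urinary proteins (Mup), pheromone carriers that male liver secretes in bulk under growth hormone pulses and that are encoded by near-identical neighbouring copies on chromosome 4. Of 18 Mup members 8 were called lower and 0 higher (median -3.17, and 7 lower with 1 higher after rescaling). The upstream bases below show how alike the copies are. They are the 250 bases before the start of 3 of the genes called lower, from RefSeq on GRCm38.p6, printed 5′ to 3′ on the strand of the gene with the TATATAA motif in capitals. Of the 18 members 12 had a sequence in the table. Mup17 was identical to Mup11 in 225 of 226 aligned bases, Mup2 in 221 of 222 and Mup21 in 155 of 183.
Mup17 (chr4:61595833-61596082, minus strand): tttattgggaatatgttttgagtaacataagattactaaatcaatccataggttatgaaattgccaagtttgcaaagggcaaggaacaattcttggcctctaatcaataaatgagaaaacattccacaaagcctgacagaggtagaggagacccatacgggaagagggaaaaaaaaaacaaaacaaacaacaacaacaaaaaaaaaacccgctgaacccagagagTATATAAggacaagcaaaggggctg
Mup2 (chr4:60139857-60140106, minus strand): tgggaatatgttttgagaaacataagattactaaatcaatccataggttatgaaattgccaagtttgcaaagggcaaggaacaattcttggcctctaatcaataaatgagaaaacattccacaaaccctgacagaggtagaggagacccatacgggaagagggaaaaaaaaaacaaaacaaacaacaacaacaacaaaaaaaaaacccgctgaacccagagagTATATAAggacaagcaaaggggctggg
Mup21 (chr4:62150842-62151091, minus strand): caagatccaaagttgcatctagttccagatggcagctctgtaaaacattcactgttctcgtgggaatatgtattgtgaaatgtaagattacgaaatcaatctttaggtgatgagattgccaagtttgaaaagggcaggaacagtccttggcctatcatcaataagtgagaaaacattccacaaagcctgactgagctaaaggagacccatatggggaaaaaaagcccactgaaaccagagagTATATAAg
The motif was found on the gene's strand in all 3 and in 9 of the 12 Mup sequences, where 3.04% of the 32851 promoters in the table held it on either strand of the same 250 bases. Since reads of such copies may be split or discarded, the values of single Mup genes are uncertain.

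Mup11 was at 0, 0, 0, 0 and 1.51 TPM in explants and 10.2, 224 and 195 TPM in livers (-6.04 ± 0.98, adjusted p = 0.00498). Mup17, shown above, was at 0, 5.91, 0, 0 and 0 TPM in explants and 8.27, 311 and 245 TPM in livers (-5.92 ± 1.21, adjusted p = 0.0121). Mup1 was at 0, 0, 0, 6.06 and 4.32 TPM in explants and 6.6, 243 and 219 TPM in livers (-5.17 ± 1.26, adjusted p = 0.0246). Livers 2 and 3 were high in all 3 genes, while liver 1 was far below them and yet above the explants. Before iris removal Mup11 was at 2.07, 2.92, 3.1, 2.45 and 3.64 TPM in explants, under the 5.12 TPM of the mean iris, so most explants were set to 0 and the size of the fold change depends on the removal and the pseudocount. Mup21, whose upstream bases are less alike, was at 20.1, 41.2, 71.3, 73.6 and 61.1 TPM in explants and 89.5, 941 and 789.9 TPM in livers (-3.04 ± 0.77, adjusted p = 0.0279). Mup20, the darcin pheromone, differed from its family, at 832, 1302, 1114, 1305 and 1047 TPM in explants and 685, 1017 and 966 TPM in livers (0.33 ± 0.19, adjusted p = 0.278), and only after rescaling was it called, as higher. Without liver 1 the Mup genes called lower were 11, and against the hepatocyte preparations 16 of the 18 were called lower.

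Other male-biased genes of liver went the same way, with 6 of 20 called lower and 0 higher (median -1.85), and 10 lower without liver 1. Slco1a1, an anion carrier of male liver, was at 0, 1.5, 17.4, 2.16 and 6.45 TPM in explants and 10.2, 276 and 325 TPM in livers (-4.63 ± 1.26, adjusted p = 0.0375). Elovl3, a fatty acid elongase, was at 0, 29.3, 3.47, 38.7 and 6.54 TPM in explants and 37.3, 371 and 366 TPM in livers (-4.38 ± 1.26, adjusted p = 0.0463). Hsd3b5, a male steroid dehydrogenase, was at 6.1, 1.88, 4.19, 0.44 and 3.15 TPM in explants and 2.7, 401 and 299.7 TPM in livers (-4.4 ± 1.41, adjusted p = 0.0666). In each, liver 1 lay among the explants and the other livers far above, and the log2 differences without liver 1 were -6.22, -5.47 and -6.58. Cyp2d9 and C8a of the same list were not called, with log2 differences of -0.28 and 0.05. Of 5 female-biased members 1 was called lower and 0 higher, and without liver 1 they were 0 lower and 2 higher. Cyp2a4 was at 64.6, 42.6, 33.9, 39.8 and 119 TPM in explants and 248, 1.64 and 0.384 TPM in livers (2.5 ± 1.47, adjusted p = 0.281), and Cyp2b9 at 8.14, 17.2, 45.1, 6.47 and 8.22 TPM and 307, 0.375 and 0 TPM (0.89 ± 1.71, adjusted p = 0.728). Both were nearly absent from livers 2 and 3 and highest in liver 1, and without liver 1 both were called higher in explants, by 4.84 and 3.57. Since both genes reached the liver limit of 10 TPM only through liver 1, their selection bears on the calls without it. The 4 transcripts of chromosome Y measured summed to 108 to 161 TPM in explants and 110 to 124 TPM in livers, and 110 TPM in liver 1, so transcripts of that chromosome were present in all 8 samples. In the explants, those of host and graft cannot be told apart.

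**Figure D3:**
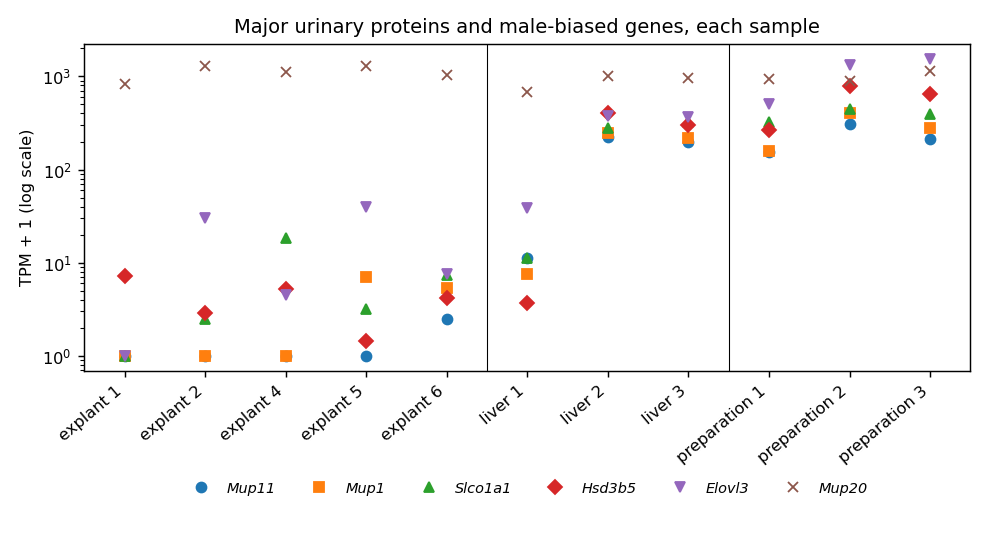
TPM + 1 (log scale) of 3 major urinary protein genes and 3 other male-biased genes in each explant after iris removal, each liver and each hepatocyte preparation. Mup20 is high in every sample, whereas the other 5 genes are low in all explants and in liver 1 and high in livers 2 and 3 and the preparations.

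The receptor that carries the growth hormone signal was lower as well. Of 9 members of the growth hormone and IGF axis 3 were called lower and 0 higher (median -0.80). Ghr, the receptor, was at 36, 49.8, 89.1, 69.1 and 63.2 TPM in explants and 112, 168 and 169 TPM in livers (-1.31 ± 0.33, adjusted p = 0.0273). Igfals, which holds IGF1 in the plasma, was at 54.8, 83.5, 46.7, 68.3 and 97.7 TPM in explants and 176, 161 and 255 TPM in livers (-1.5 ± 0.30, adjusted p = 0.0115). Egfr, the receptor of epidermal growth factor and a male-biased gene of liver, was at 37.5, 52.5, 59.6, 28.6 and 31.3 TPM in explants and 100.1, 220.0 and 226 TPM in livers (-2.06 ± 0.38, adjusted p = 0.00773). The explants were below the livers throughout, and Egfr alone of the 3 remained lower after rescaling. Of 3 members of the circadian list 2 were called lower, among them Por, the electron donor of all microsomal cytochromes P450, at 40.8, 57.6, 87.9, 77 and 110.4 TPM in explants and 532, 396 and 511 TPM in livers (-2.73 ± 0.32, adjusted p = 0.00138). Iris supplied 84.9% of the Por signal of the explants, and the time of day of sampling is not given in the sources used here.

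The order of pericentral and periportal genes differed between explants. Of 23 pericentral members 5 were called lower and 2 higher (median -0.51), and of 31 periportal members 7 lower and 1 higher (median -0.80). Among all members 18% were called lower. After rescaling 1 pericentral member was lower and 3 higher, and 1 periportal member was lower and 4 higher. The order of these medians was turned without liver 1, at -0.81 pericentral and -0.64 periportal, with 3 periportal members lower, and also with the limit on read starts undone (-0.88 and -0.82). In explants 1 and 2 the pericentral median log2 ratio to the mean liver, -1.47 and -1.09, was under the periportal one, -0.998 and -0.32. In explant 4 the order was turned, at -0.19 pericentral and -1.05 periportal, and explants 5 (-0.63 and -0.79) and 6 (-0.53 and -0.58) lay between. The hepatocyte preparations also spread, preparation 2 being at 0.62 pericentral and -0.67 periportal. The ammonium carrier Rhbg, pericentral, was at 18.4, 8.68, 93, 27.7 and 21.6 TPM in explants and 29.1, 30.9 and 33 TPM in livers (-0.31 ± 0.64, adjusted p = 0.748). Cyp2f2, periportal, was at 221, 1152, 137, 326 and 659 TPM in explants and 1239, 1121 and 1278 TPM in livers (-1.68 ± 0.60, adjusted p = 0.0936). Hal, which breaks down histidine in periportal cells, was at 36, 113, 6.15, 33.4 and 76.1 TPM in explants and 359, 121 and 132 TPM in livers (-2.24 ± 0.83, adjusted p = 0.101). Explant 4 was the highest of all for Rhbg and the lowest for Cyp2f2 and Hal, while among the explants explant 2 was the lowest for Rhbg and the highest for Cyp2f2 and Hal. Slc1a2, the glutamate carrier of the last pericentral cells, was the pericentral gene with the largest fall, at 0, 0, 0, 0.291 and 0 TPM in explants and 27.3, 56.4 and 56 TPM in livers (-5.43 ± 0.48, adjusted p = 0.000519). Before removal it was at 0.705, 1.6, 0.929, 2.48 and 0.583 TPM in explants, with 3.33 TPM in the mean iris. Cdh1, the adhesion protein of periportal hepatocytes and other epithelia, was called higher, at 177, 109, 187, 118 and 154 TPM in explants and 64.9, 38.9 and 39.9 TPM in livers (1.62 ± 0.29, adjusted p = 0.007).

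**Figure D4:**
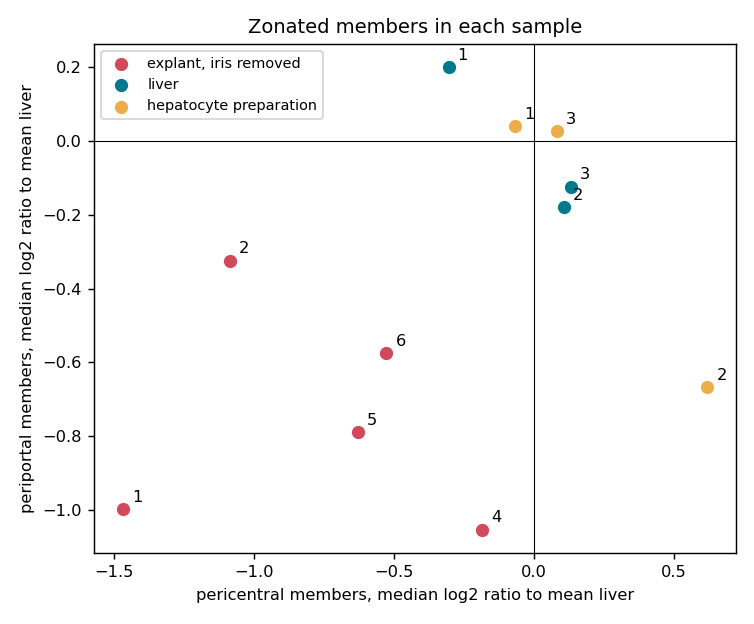
Median log2 ratio to the mean liver over 23 pericentral members (horizontal) and 31 periportal members (vertical), one numbered point per sample. Explants 1 and 2 lie to the left with the periportal median the higher, explant 4 lies low with the pericentral median the higher, and the livers lie near 0.

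Of 12 members among sinusoidal endothelial markers 8 were called lower and 0 higher (median -2.08, and 5 lower after rescaling, 3 without liver 1). Clec4g, a lectin of these cells, was at 0, 25, 0, 0 and 13.1 TPM in explants and 97.9, 148 and 175 TPM in livers (-5.4 ± 1.2, adjusted p = 0.0167), with an adjusted p of 0.0538 without liver 1. Oit3 was at 1.29, 3.67, 0.922, 0 and 5.23 TPM in explants and 26.7, 30.8 and 36.9 TPM in livers (-3.61 ± 0.65, adjusted p = 0.00742). Rspo3, the Wnt amplifier released by central vein endothelium, was at 0.0732, 0.741, 0, 0 and 0.329 TPM in explants and 18, 12.6 and 9.36 TPM in livers (-3.54 ± 0.50, adjusted p = 0.0028). No explant reached the lowest liver in these 3 genes. In the hepatocyte preparations the median of this list against livers was -1.21. The 5 defining markers of these cells summed to 24.8 to 130 TPM in explants and 223 to 296 TPM in livers, and none was at 0 in every explant. Among them Fcgr2b was not a member and was also found in irises, at 17.7 to 23.6 TPM. It was at 43.4, 91.4, 17.2, 34.2 and 59.3 TPM in explants and 30.9, 32.3 and 52 TPM in livers, overlapping (0.19, adjusted p = 0.811). Clec4f, the lectin particular to Kupffer cells, was the one called lower among 8 Kupffer members, at 1.35, 11.2, 0, 0 and 4.93 TPM in explants and 31.3, 101 and 123 TPM in livers (-4.73 ± 0.93, adjusted p = 0.0102). Vsig4, another Kupffer marker, was at 6.26, 70.2, 3.42, 7.18 and 96.1 TPM in explants and 44.1, 50.8 and 73.3 TPM in livers, with explants 2 and 6 at liver level. The 5 Kupffer markers summed to 14.7 to 156 TPM in explants and 204 to 371 TPM in livers. The log2 differences of the 8 members ran from -4.73 to 1.30 (median -1.03). The whole Kupffer list of 20 genes, non-members included, went the other way. It summed to 3262 to 7192 TPM in explants and 1599 to 2010 TPM in livers, and the part of iris in it was not tested. Of 3 stellate cell members 2 were called lower and 0 higher (median -1.79, with 1 lower after rescaling and 1 without liver 1). None of the 5 defining stellate cell markers was a member. They summed to 323 to 429 TPM in explants, 139 to 160 TPM in livers and 288 to 324 TPM in irises, and the part of iris in their level was not tested. Of these Des (3.83, adjusted p = 0.000847) and Ecm1 (1.07, adjusted p = 0.0102) were higher in explants, while Lrat, which stores vitamin A, was at 0 in every explant after removal and at 10.6 to 15.2 TPM in livers. Of 5 erythroid members 2 were called lower (median -3.76) and 0 without liver 1, and whether the livers were freed of blood is not given in the sources used here.

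Of 5 cholangiocyte members 1 was called higher and 1 lower (median 0.87), and after rescaling 4 were higher and 0 lower. The one called lower without rescaling, the factor Onecut2, was at 10.9, 5.43, 6.4, 5.85 and 10.024 TPM in explants and 21.6, 21.2 and 20.3 TPM in livers (-1.38 ± 0.40, adjusted p = 0.0458), with an adjusted p of 0.164 without liver 1. Tspan8, a membrane protein of bile duct and gut epithelium, was at 127, 45.7, 50.4, 129 and 105 TPM in explants and 25.6, 4.16 and 6.06 TPM in livers (3.09 ± 0.61, adjusted p = 0.0104). Epcam was at 39.7, 13.7, 85.8, 30.8 and 42.8 TPM in explants and 22.2, 10.007 and 6.79 TPM in livers (1.57 ± 0.59, adjusted p = 0.109), and in the preparations at 0.686, 0.39 and 0 TPM. The explants were above all livers for Tspan8 and overlapped them for Epcam. Of the 5 defining markers only Epcam is a member. Together they summed to 618 to 1404 TPM in explants, 282 to 561 TPM in livers and 923 to 1037 TPM in irises, and the part of iris in their level was not tested.

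Ubd, first among the rises named by size and a ubiquitin-like protein induced by interferon and tumor necrosis factor, was at 852, 429, 278, 662 and 1375 TPM in explants and 38.9, 18.1 and 6.37 TPM in livers (5.13 ± 0.62, adjusted p = 0.00146). Spink1, a trypsin inhibitor, was at 223, 334, 48.7, 243 and 393 TPM in explants and 19.8, 16.7 and 1.56 TPM in livers (4.38 ± 0.84, adjusted p = 0.00939). Krt23, a keratin of epithelial cells, was at 130.1, 74.3, 123, 163 and 102 TPM in explants and 20.9, 7.65 and 1.69 TPM in livers (3.86 ± 0.61, adjusted p = 0.0044). Every explant was above every liver, and explant 4 was the lowest of the explants in Ubd and Spink1. Atp6v0d2, a proton pump subunit, was at 131, 112, 273, 119 and 173 TPM in explants and 56.2, 4.92 and 10.9 TPM in livers (3.27 ± 0.66, adjusted p = 0.0117). Spon2, a secreted matrix protein, was at 123, 168, 129, 172 and 172 TPM in explants and 22.2, 12.4 and 11.9 TPM in livers (3.26 ± 0.29, adjusted p = 0.000519). Ly6d was at 258, 335, 253, 650.1 and 293 TPM in explants and 169, 11.4 and 12.4 TPM in livers (3.46 ± 0.80, adjusted p = 0.0201). Liver 1 was the highest liver in all of the 12 largest rises but Zbp1.

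Among these rises, Ifi27l2b, Zbp1 and Mpeg1 are interferon or macrophage genes. Ifi27l2b was at 406, 337, 241, 386 and 439.8 TPM in explants and 114, 52.2 and 16.3 TPM in livers (2.91 ± 0.52, adjusted p = 0.00735). Zbp1, a sensor of foreign nucleic acid, was at 55.6, 84.4, 39.2, 44.1 and 136 TPM in explants and 12.4, 7.38 and 14.4 TPM in livers (2.44 ± 0.46, adjusted p = 0.0087). Mpeg1, the perforin of macrophages, was at 306, 344, 164, 284 and 418 TPM in explants and 79.4, 43.2 and 45.9 TPM in livers (2.4 ± 0.34, adjusted p = 0.00268). No liver reached the lowest explant in these. Of 5 interferon-induced members 2 were called higher and 0 lower (median 1.09, and 3 higher after rescaling), and of 7 MHC members 0 were called (median 0.37, and 4 higher after rescaling). In irises these 3 genes were at 1.31, 2.08 and 17.5 TPM on average, under all explants.

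**Figure D5:**
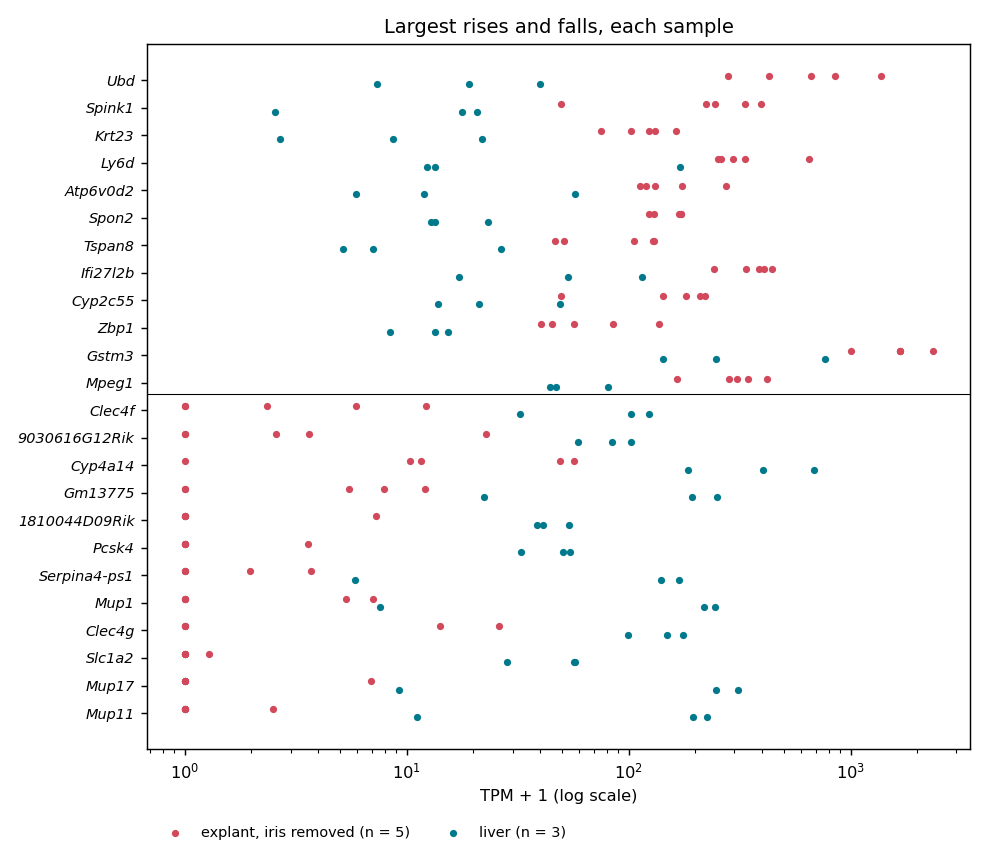
TPM + 1 (log scale) in each of the 5 explants after iris removal (red) and the 3 livers (blue) for the 12 strongest rises and the 12 strongest falls in log2 difference among members called without overlap. Points at 1 on the axis are values of 0, and liver 1 is the lowest liver in the Mup genes.

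Of the 12 largest falls, 3 were Mup genes and the others came from several cell types. Pcsk4, a proprotein convertase, was at 0, 0, 0, 2.59 and 0 TPM in explants and 49.5, 31.7 and 53.5 TPM in livers (-5.12 ± 0.60, adjusted p = 0.00134). The serpin pseudogene Serpina4-ps1 was at 0, 0.961, 0, 0 and 2.72 TPM in explants and 4.87, 168 and 139 TPM in livers (-5.12 ± 1.1, adjusted p = 0.0148), with liver 1 far under the other livers. The transcripts 1810044D09Rik, Gm13775 and 9030616G12Rik had log2 differences of -4.89, -4.87 and -4.78. At the other end, 5 abundant members with a narrow spread lay nearest to no difference: Gulo, Htatip2, Ltbr, 1600014C10Rik and Sdc1, with log2 differences from -0.01 to 0.01. Sdc1, a heparan sulfate proteoglycan that binds lipoproteins, was at 266, 282, 355, 251 and 292 TPM in explants and 378, 242 and 254 TPM in livers (0.01 ± 0.21, adjusted p = 0.976). Relative to the median of all members these 5 stood about 0.70 higher.

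The same members were set beside the hepatocyte preparations, a comparison that shares the explants with the one above. Against the preparations 327 members were called lower and 76 higher, with a median of -0.63, where 3.28% and 15.7% of all genes tested were called. Between preparations and livers, which shares the livers, 28 members were called lower and 3 higher, with a median of -0.04. Of all genes tested there, 0.555% were called lower and 0.128% higher. Cebpa was at 200.2, 136 and 123 TPM in the preparations and Slc10a1 at 1617, 1513 and 1598 TPM, both above all explants. Elovl3 was at 501, 1331 and 1545 TPM in the preparations, where its log2 difference to the explants was -6.92. Clec4g was at 109.8, 22.6 and 91.3 TPM, and preparation 2 lay within the range of the explants.

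When the members were chosen from the preparations in place of the livers, so that the livers set nothing, 1576 genes were chosen, 1392 of them shared. Of these 268 were called lower and 37 higher in explants than in livers, with a median of -0.65. The 6824 genes at the liver limit that iris also expresses had 206 called lower and 833 higher, with a median of 0.13.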

How the data were processed

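RNA was measured in 5 explants, 3 livers, 3 hepatocyte-enriched preparations, 3 irises and 2 in vitro spheroid samples, as 48 libraries. Reads were aligned by the authors with TopHat2 to mm10, deduplicated, and assigned with featureCounts to 46517 genes without regard to strand, with overlapping genes allowed. The deposited counts per sample equal the sum of its 3 technical libraries. The deposited TPM were calculated by the authors from these counts and gene lengths. The deposited corrected signal, from which the authors subtracted iris, follows the formula of their methods in all explants but explant 4, and was used only as an alternative. Overlapping genes and near-identical copies (Mup, Cyp, Ugt, H2) have uncertain counts, since reads could be split.

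Iris was removed from the TPM of every explant as (TPM - F × mean iris TPM)/(1 - F), with negative results set to 0 and F of 82%, 68%, 81%, 72% and 59%. Genes with a mean of at least 1 TPM over the samples compared were tested on log2(TPM + 1) with limma 3.58.1 (moderated test with trend) in R 4.3.3 and adjusted by Benjamini-Hochberg. Total counts were compared by exact permutation over 56 arrangements (two-sided). The method was also run on simulated mixtures. These were made and corrected with the same iris fractions and the same mean iris, so they cannot show the effect of errors in either. The members and the lists were chosen with earlier results of these data known.

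Named genes are the 12 strongest rises and the 12 strongest falls in log2 difference among members called without overlap and with at least 30 counts in the higher group, the 5 with mean liver TPM over 100 closest to no difference, and members of lists: those with the largest called difference and the highest liver TPM. Cyp7a1, Hal, Hsd3b5, Lcn2, Mup2, Rhbg and Ttr were chosen after their values were seen. Some members of lists are not reported here by name. The depth per sample, given with the results, sets counting error, which iris removal multiplies. Alternatives changed the iris fraction, the iris mean, the pseudocount (0.1 and 10), the filter, the scaling, the weights, the variance model, the test, the counting, the membership limits and the samples. edgeR 4.0.16 and DESeq2 1.42.0 were run on counts from which iris was not removed. For the 2 comparisons with hepatocyte preparations, the alternatives were chosen after seeing the data.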

Additional observations from a re-analysis of the deposited data

Results flagged for a closer look

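In 10 of 94 genes tested, a single explant stood apart from the other 4 by Dixon's criterion. This is the gap to the nearest value over the whole range, with a limit of 0.710 for 5 samples. For independent groups chance gives about 1 in 20. The genes share the same 5 explants and some were chosen after their values were seen, so the 10 cannot be set against that rate. Livers and preparations, with 3 samples each, were not tested. Explant 4 was the lowest in 4 of them: the ratio was 0.727 in Spink1 (48.7 TPM, others 223 to 393), 0.942 in Lcn2 (0, others 231 to 324), 0.852 in Orm1 (258 TPM, others 1345 to 1789) and 0.913 in Saa2 (0, others 236 to 398). Explant 2 was the highest in Sds, with a ratio of 0.727 (207 TPM, others 6.35 to 17.3). In the other 5 a single explant was above 0 and the ratio is 1 by construction: Mup11 (1.51 TPM in explant 6), Mup17 (5.91 TPM in explant 2), Slc1a2 (0.291 TPM in explant 5), Pcsk4 (2.59 TPM in explant 5) and 1810044D09Rik (6.28 TPM in explant 2).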

How the results depend on the processing

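The member median stayed below 0 under every alternative but the rescaling, which sets it near 0 by construction, while the number of calls depended on the iris fraction, the scaling and the livers. Values follow as all genes called, members lower, members higher, member median, list members called lower and named genes called, where they moved from 3104, 306, 32, -0.70, 93 and 24. Without iris removal they were 9896, 1331, 4, -1.66 and 405. On counts without removal edgeR gave 8020, 1554, 1, -2.47, 447 and 13 and DESeq2 8875, 1610, 2, -2.50, 447 and 14, and Ly6d (-0.069 and -0.032) and Gstm3 (-0.47 and -0.45) were then on the other side of 0. The deposited corrected values gave 1431, 103, 20 and 40 list members. With 5 points more iris the values were 124 lower, 56 higher, -0.47 and 39 list members, with 5 points less 499 lower, -0.88 and 144 list members, and with the fraction from iris-specific genes 494 lower, -0.87 and 143 list members. Rescaling gave 4750, 88, 158, -0.038 and 33, and library a of each sample alone gave 1643, 140 lower and 55 list members. With weights, 13 named genes were called. Without the log2 limit, 61 members were higher. A liver limit of 50 TPM left 13 higher, and an iris limit of 10% of liver left 161 lower and 16 higher among 799 members.

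The exact Mann-Whitney test called 0 genes (0 members lower and 0 higher), with a smallest adjusted p of 0.124, and 804 members had an unadjusted p under 0.05. Leaving out single samples gave 1142 to 4091 genes, 71 to 351 members lower, 12 to 47 higher, medians of -0.75 to -0.63, 22 to 102 list members and 10 to 24 named genes. The lowest numbers came without liver 2 (79 lower) or liver 3 (71 lower), and without liver 1 there were 172. For explants against preparations the range was 2064 to 4867 genes, and for preparations against livers 25 to 239, with 24 at log2(TPM + 10). Leaving out any preparation moved both counts by over 1.5 times, and leaving out liver 2 or 3 the second. Samples numbered 1 and 2 in both groups were not treated as pairs in the main comparison. The difference between samples 1 and 2 in explants had a correlation of 0.04 with that in livers over members. A single difference in each group cannot show whether the samples were paired. With the number as a replicate block 186 genes were called, 4 members lower and 2 higher, 2 list members and 2 named genes. On these samples without the block 0 genes were called, and 503 members had an unadjusted p under 0.05. Of the 257 members under 20 TPM in liver, 105 had an explant at 0, against 14 of the 434 at 300 TPM or more.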
